A study of Homo sapiens with 32 samples.

Results

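Loops at the replication-dependent histone genes of human chromosome 6 are described here. The genes are the protein-coding genes of the GENCODE annotation between 25.9 and 28 Mb (hg38) whose symbols begin with H1-, H2AC, H2BC, H3C or H4C, 53 in all. A loop counts when at least 1 of its anchors, the paired 5 kb segments that it connects, lies within 10 kb of the start of such a gene. This rule found 43 loops among the 45629 of 4 deposited lists: 14 in untreated wild-type cells, 10 in wild-type cells given sorbitol, 9 in untreated eGFP-YAP cells and 10 in eGFP-YAP cells given sorbitol. All 43 have both anchors between 25.9 and 28 Mb.

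The loops come from in situ Hi-C, which joins and sequences DNA segments that lie close together in the nucleus. The cells are labelled HEK293, a human embryonic kidney line (the growth protocol names HEK293T), either wild type or of the genotype eGFP-YAP, meaning that they carry YAP, a transcriptional co-activator of the Hippo pathway, tagged with enhanced GFP. Each line was untreated (0 h) or held in 200 mM sorbitol, which makes the medium hyperosmotic, for 1 h. The design text states that eGFP-YAP cells had been serum-starved for 1 h. Whether the wild-type cells were is not stated. Per the labels, 3 replicates belong to each of the wild-type conditions and 4 to each of the eGFP-YAP ones. These are 14 of the 32 samples of the series, and the other 18 were not analysed here. The labels do not say what drives the fusion protein or whether the line is 1 clone.

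Each condition is represented by 1 pooled list with no replicate column, so no difference between conditions has a replicate check, no test was made, and the reads behind each list are unknown. The lists are of unequal length, with 15180 and 5906 loops in untreated and sorbitol-treated wild-type cells and 18966 and 5577 in the eGFP-YAP cells. They also carry a different source name for each line, so that line, source and any difference in serum starvation cannot be told apart. The intervals below (95%) cover counting error only and treat loops or genes as independent, which neighbours are not.

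Histones are the proteins that package DNA: H2A, H2B, H3 and H4 build the core of the nucleosome, and H1 binds the DNA that enters and leaves it. Replication-dependent histone genes are transcribed in S phase, and their mRNAs end in a stem-loop in place of a poly(A) tail. Their transcription and processing factors, with NPAT as the scaffold, gather in a nuclear compartment called the histone locus body, and the chromosome 6 genes are known to contact each other across the DNA that separates them. The same stretch of chromosome 6 is also rich in genes for transfer RNA, which RNA polymerase III transcribes.

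The 53 genes form 3 subclusters, defined here as runs of gene starts with no gap above 200 kb. Subcluster 1, from H1-1 to H4C8 (starts at 26017787 to 26285638), holds 32 genes over 268 kb. Subcluster 2, from H2BC11 to H2AC12 (27132795 to 27147106), holds 5 genes over 14 kb. Subcluster 3, from H2BC13 to H2BC17 (27807929 to 27893425), holds 16 genes over 85 kb. The gaps between them are 847 kb and 661 kb, while the largest gap inside any of them is 47.5 kb. In all there are 6 genes for H1, 11 for H2A, 14 for H2B, 10 for H3 and 12 for H4.

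In 9 places an H2A gene and an H2B gene start back to back, 169 to 250 bp apart, and share the DNA between them as a promoter. The shared promoters below are those of 5 pairs whose starts lay inside anchors of loops between subclusters and to which the results refer repeatedly. Each is read on the plus strand of hg38, 5′ to 3′, from the base after one gene start to the base before the next. Capitals mark the octamer ATTTGCAT, the site of the POU factor family in H2B promoters, and the CCAAT box, each on either strand (ATGCAAAT and ATTGG on the other).
H2AC7–H2BC7, chr6:26199294-26199515: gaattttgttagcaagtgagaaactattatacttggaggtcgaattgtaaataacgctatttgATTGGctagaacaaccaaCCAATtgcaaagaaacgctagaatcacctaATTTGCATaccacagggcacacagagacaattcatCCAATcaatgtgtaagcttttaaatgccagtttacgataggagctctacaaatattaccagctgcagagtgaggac
H2BC11–H2AC11, chr6:27132796-27133042: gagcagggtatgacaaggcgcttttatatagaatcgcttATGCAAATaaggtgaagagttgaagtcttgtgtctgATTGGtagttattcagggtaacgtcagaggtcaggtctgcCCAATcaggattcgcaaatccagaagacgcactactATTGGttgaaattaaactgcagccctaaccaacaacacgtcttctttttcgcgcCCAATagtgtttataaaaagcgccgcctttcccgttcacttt
H2BC12–H2AC12, chr6:27146856-27147105: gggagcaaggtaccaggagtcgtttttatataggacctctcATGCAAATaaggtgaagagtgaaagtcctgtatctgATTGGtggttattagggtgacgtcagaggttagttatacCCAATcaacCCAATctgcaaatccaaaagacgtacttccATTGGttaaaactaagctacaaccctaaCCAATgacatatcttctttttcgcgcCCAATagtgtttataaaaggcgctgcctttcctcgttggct
H2BC13–H2AC13, chr6:27807930-27808172: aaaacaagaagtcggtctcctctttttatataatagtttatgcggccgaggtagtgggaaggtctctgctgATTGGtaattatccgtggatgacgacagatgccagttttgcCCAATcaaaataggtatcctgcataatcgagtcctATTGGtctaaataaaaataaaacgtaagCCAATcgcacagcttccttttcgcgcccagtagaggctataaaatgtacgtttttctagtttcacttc
H2AC17–H2BC17, chr6:27893186-27893424: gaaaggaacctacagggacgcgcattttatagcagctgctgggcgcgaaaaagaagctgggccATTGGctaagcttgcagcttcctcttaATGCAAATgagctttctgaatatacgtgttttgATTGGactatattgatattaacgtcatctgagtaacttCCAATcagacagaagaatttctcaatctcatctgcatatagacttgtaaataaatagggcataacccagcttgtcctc

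The octamer was present in 7 of the 9 shared promoters and the CCAAT box in all 9, while TATAAA (either strand) was present in 6. Of the 5 printed, the one between H2BC13 and H2AC13 has no octamer. In the RefSeq promoter table (GRCh38, 250 bases before to 50 after each start), 48 of the 53 genes were found. The octamer was in 20 of these 48 promoters against 1.77% of all 35116, namely in 8 of 10 for H2A, 11 of 14 for H2B, 1 of 8 for H3 and none of 6 for H1 and 10 for H4. The CCAAT box was in 41 of 48 against 34.6% of all, and in 3 of 10 for H4. H4 was thus the only family with promoters that lacked both. These matches describe letters in a window and not binding.

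Loops that join 2 subclusters were most numerous in untreated wild-type cells. There were 6 of them there, against 2 in each of the other lists, and 4 of the 6 ran from subcluster 1 to subcluster 3 over more than 1.6 Mb. No other list held a loop from subcluster 1 to subcluster 3. Loops from subcluster 2 to subcluster 3 showed the reverse: 0 in untreated wild-type cells, 2 in wild-type cells with sorbitol, 1 in untreated eGFP-YAP cells and 2 in eGFP-YAP cells with sorbitol. Loops from subcluster 1 to subcluster 2 numbered 2, 0, 1 and 0 in the same order, so neither sorbitol list joined subcluster 1 to any other. Every loop that joined subcluster 1 to another spanned 900 kb or more. Loops of that length were also fewer with sorbitol in the whole lists, at 579, 169, 1035 and 247. With so few loops, the ratio of joining loops with sorbitol to those without, 0.333 in wild type, has an exact interval from 0.0329 to 1.86, and the ratio of 1 in eGFP-YAP cells has one from 0.0725 to 13.8.

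**Figure D1:**
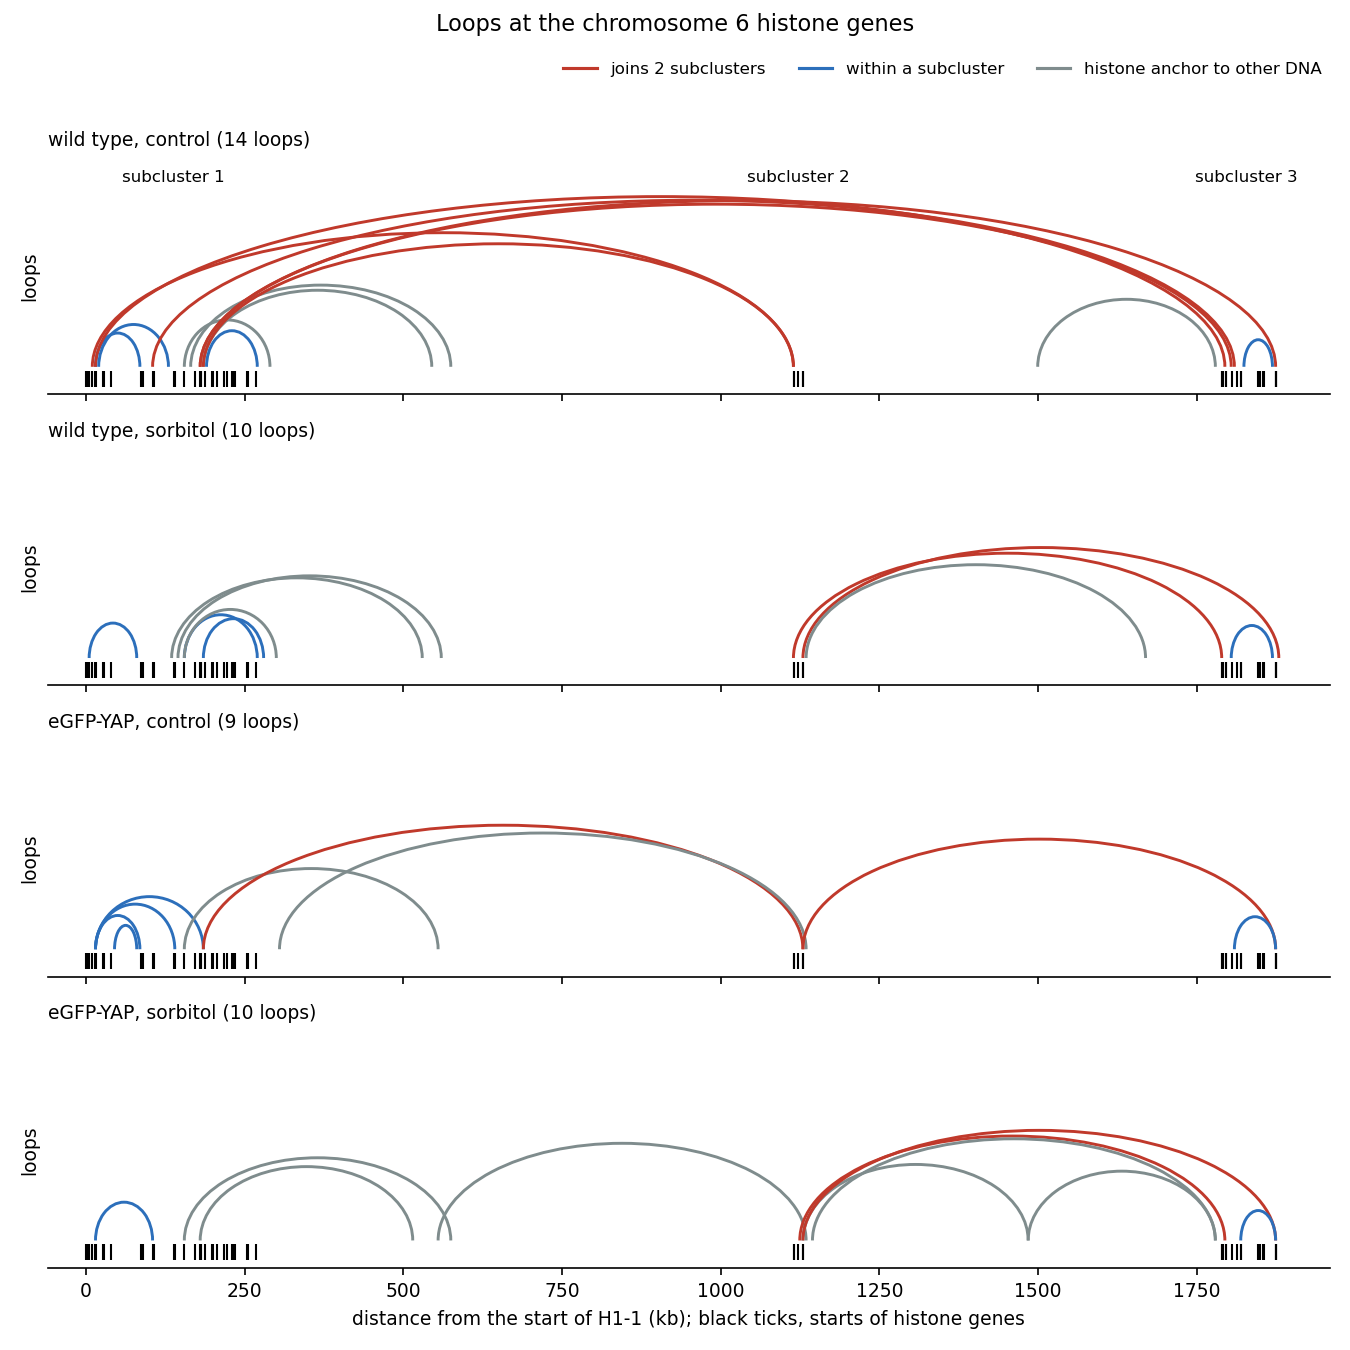
Every histone-gene loop as an arc between its anchor centres, in 4 panels for the 4 lists; the x axis is the distance in kb from the start of H1-1, black ticks mark gene starts, and arc height grows with the square root of the span with no further unit. Red arcs, which join subclusters, number 6 in untreated wild-type cells and 2 in each other list, and only the top panel has arcs from subcluster 1 to subcluster 3.

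In untreated wild-type cells the longest loop joined the anchor at 26030001, which holds the starts of H3C2 and H2AC4, to the anchor at 27810001, which holds those of H3C10 and H2AC14. (Anchors are named by their first base, on chromosome 6.) It spanned 1780 kb and stood at the 99.8 percentile of its list by the caller's peak score, which has no fixed scale and is used here to rank loops within a list. The anchor at 26195001, which holds H3C4 and the back-to-back pair H2AC7 and H2BC7, made a pair of such loops. One ran 1625 kb to 27820001, where H4C11 starts, and stood at the 92.5 percentile. The other ran 1695 kb to 27890001, where H3C12, H2AC17 and H2BC17 start, at the 89.6 percentile. A further loop of 1705 kb led from the H2BC4 and H2AC6 pair at 26120001 to 27825001, 0.9 kb from the start of H4C11, at the 66.1 percentile. Of these 4 loops all but the last stood high in their list by score. Their nearest counterparts in the other 3 lists lay 365 to 780 kb away by the farther anchor, so no shift of an anchor by a few bins separated the lists here.

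Subcluster 2 was also joined to subcluster 1 in untreated cells of both lines, at neighbouring places. In wild type, H4C5 at 26200001 was joined to the H2BC11 and H2AC11 pair at 27130001 over 930 kb, at the 99.7 percentile. In eGFP-YAP, the same H4C5 anchor was joined to the H2BC12 and H2AC12 pair at 27145001 over 945 kb, at the 95.1 percentile. The right anchors lie 15 kb apart, so these loops did not match under the rule used below, which allows 10 kb. A second loop of this kind in wild type led from H4C2 at 26025001 to the H2BC11 and H2AC11 anchor over 1105 kb, at the 99.1 percentile. In the sorbitol lists the loop nearest to the wild-type H4C5 loop was 400 kb away in wild type and 150 kb away in eGFP-YAP.

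Between subclusters 2 and 3, a loop from the H2BC12 and H2AC12 pair to the far end of subcluster 3 was the joining loop found in most lists. In both eGFP-YAP lists it ran from 27145001 to 27890001, where H3C12, H2AC17 and H2BC17 start, over 745 kb. It stood at the 89.4 percentile without sorbitol and at the 96.2 percentile with it. In wild-type cells with sorbitol its right anchor lay 5 kb further on, over 750 kb, at the 48.4 percentile. In untreated wild-type cells the nearest loop lay 145 kb away. The loop was thus present in 3 lists, at unlike ranks, and absent from the list that held the loops from subcluster 1 to subcluster 3.

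The second loop between these subclusters was found in the sorbitol lists of both lines. In wild type it joined the H2BC11 and H2AC11 anchor at 27130001 to the H2BC13 and H2AC13 pair at 27805001 over 675 kb, at the 72.8 percentile. In eGFP-YAP it ran from 27140001, 0.7 kb from H4C9, to the H3C10 and H2AC14 anchor at 27810001 over 670 kb, at the 66.7 percentile. The nearest loop in the untreated list of the same line was 120 kb away in wild type and 20 kb away in eGFP-YAP. The last distance is that to a loop of untreated eGFP-YAP cells just outside the 10 kb limit for genes, from 27160001 to 27790001, over 630 kb at the 83.4 percentile, whose anchors lie 12.9 kb from H2AC12 and from H2BC13. Its match in eGFP-YAP cells with sorbitol, from 27160001 to 27795001 over 635 kb at the 87.1 percentile, lies just inside the limit, 7.9 kb from H2BC13.

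Most anchors of joining loops contained a histone gene start. Of these 24 anchors, 21 contained a histone gene start, as did 35 of the 82 bins of 5 kb within 10 kb of a start (42.7%), and 11 of the 14 distinct anchors did. A start was inside 19 of 30 anchors of loops within a subcluster and 7 of 16 histone-side anchors of loops to other DNA. A back-to-back H2A or H2B gene started inside 16 of the 24 joining anchors and within 10 kb of 22, as it did inside 10 (12.2%) and within 10 kb of 38 (46.3%) of the same 82 bins. The 24 count an anchor once for each of its loops, and those at 27130001, 27145001 and 27890001 recur. The 16 and 22 are thus not numbers of separate anchors, and the count over the 14 distinct anchors is not given here. Joining anchors with no back-to-back gene inside included those at the single H4 genes H4C2, H4C5 and H4C11. The anchor at 26030001, with H3C2 and H2AC4, was also among them.

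Joining loops ranked high by score in the untreated lists, with 1 exception, and less uniformly in the sorbitol lists. Of the 6 in untreated wild-type cells, 5 stood above the 89 percentile by score, and all 6 lay between the 91.2 and 99.8 percentile by contact value. The values of the 2 in untreated eGFP-YAP cells were 95.1 and 89.4 by score, and 94.5 and 84.7 by contact value. With sorbitol, the 2 in wild type stood at 72.8 and 48.4 by score and the 2 in eGFP-YAP at 66.7 and 96.2. The ranks were also taken among loops of like length, those of 600 kb or more of the same list. There the 6 loops of untreated wild-type cells stood between the 50.3 and 99.4 percentile, those of untreated eGFP-YAP cells at 92.4 and 84.1, those of wild type with sorbitol at 49.6 and 27.9, and those of eGFP-YAP with sorbitol at 35.7 and 90.6. Scores from different lists cannot be set against each other, since the scale of each list is unknown.

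**Figure D2:**
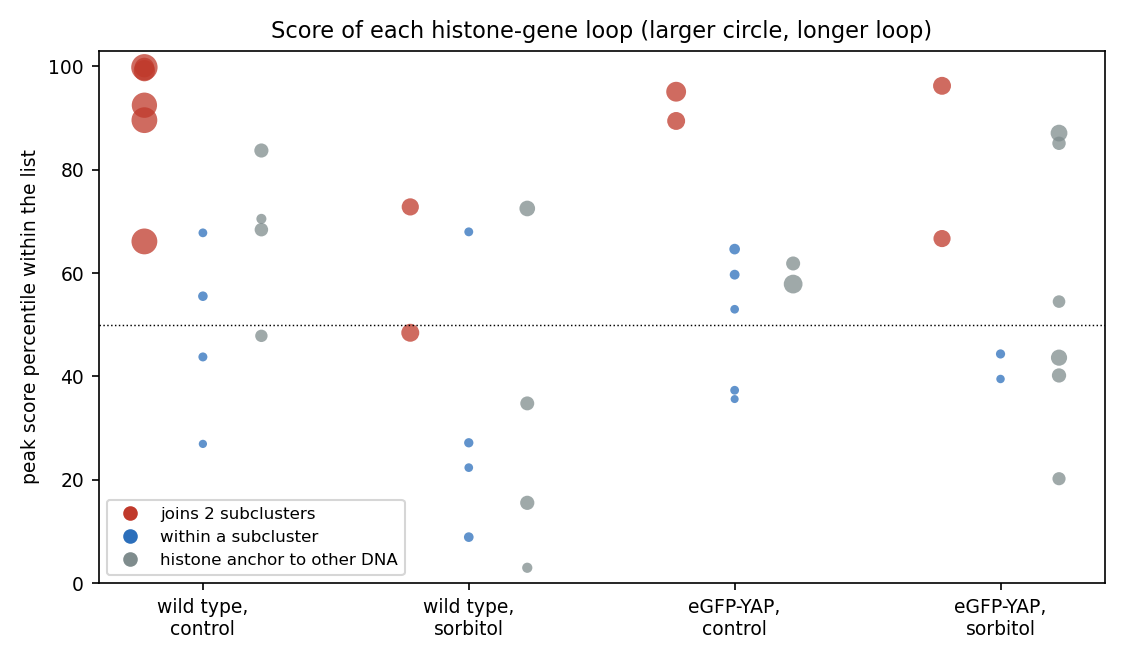
Percentile of the caller's peak score within its own list (y axis, in percent) for each of the 43 histone-gene loops, by list (x axis) and by class (colour); circle size grows with span and the dotted line is the list's median. In untreated wild-type cells 5 of the 6 red circles, the joining loops, lie above the 89 percentile, where no loop of the other classes lies.

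The spans of histone-gene loops varied widely within every list. The median was 385 kb in untreated wild-type cells (range 45 to 1780), 270 kb with sorbitol (65 to 750), 170 kb in untreated eGFP-YAP cells (35 to 945) and 387.5 kb with sorbitol (55 to 745). The medians of the whole lists were 240, 215, 260 and 230 kb. Loops of 600 kb or more made up 6 of 14, 2 of 10, 3 of 9 and 3 of 10 histone-gene loops, against 11.9%, 9.21%, 14.9% and 12.2% of all loops of the respective lists. A joining loop always crosses a gap of 847 or 661 kb, so the layout of the genes by itself puts joining loops among the long ones. Loops of 1600 kb or more numbered 43, 8, 111 and 16 in the lists and 7, 0, 15 and 1 on chromosome 6, and the 4 histone-gene loops of untreated wild-type cells were 4 of those 7. Very long loops were thus not rare in untreated eGFP-YAP cells, but none was at a chromosome 6 histone gene.

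In the whole lists the number of histone-gene loops was similar without and with sorbitol, while the lists differed much in length, although the counts are small. In wild type it went from 14 to 10, a ratio of 0.714 (exact interval 0.284 to 1.73), where the whole list had a ratio of 0.389, inside that interval. In eGFP-YAP cells it went from 9 to 10, a ratio of 1.11 (0.406 to 3.09), where the whole list had a ratio of 0.294, below that interval. Loops with a protein-coding gene start within 10 kb of an anchor, the class to which histone-gene loops belong, had ratios of 0.655 and 0.473, inside the interval of the histone-gene loops in both lines. Other loops of the same stretch behaved likewise. Those with both anchors between 25.9 and 28 Mb and no histone gene at either went from 18 to 13 and from 20 to 21. On the whole of chromosome 6 the loops went from 1139 to 412 and from 1326 to 367. Histone-gene loops made up 0.0922%, 0.169%, 0.0475% and 0.179% of the 4 lists. In the upper 50% of each list by score they numbered 11 without and 3 with sorbitol in wild type, and 7 and 5 in eGFP-YAP cells.

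Few of the individual loops were found again across the treatment. A loop counted as found again when the second list had one whose anchors were each centred at most 10 kb from its own. In wild type 3 of 14 untreated loops were found again with sorbitol, 21.4% (Wilson interval 7.57 to 47.6), against 7.81% of all loops of the list and 10.9% of its gene-start loops. In eGFP-YAP cells 2 of 9 were, 22.2% (6.32 to 54.7), against 9.28% and 11.5%. Both intervals include the background shares. None of the 6 joining loops of untreated wild-type cells was among those found again, while 1 of the 2 in eGFP-YAP cells, that from H2BC12 to H2BC17, was.

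Read the other way, 7 of 10 loops with sorbitol had no untreated partner in either line, 70.0% (39.7 to 89.2), against 79.9% of all sorbitol loops in wild type and 68.4% in eGFP-YAP. The remaining 3 of 10 (30.0%, interval 10.8 to 60.3) compare with 20.1% and 31.6% of all loops and with 16.7% and 24.9% of gene-start loops. Histone-gene loops were therefore near the background in how often a sorbitol loop lacked a partner.

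Between the lines, 2 of 14 untreated wild-type loops were found in untreated eGFP-YAP cells, 14.3% (4.01 to 39.9), against 40.2% of the whole wild-type list. The upper bound of the interval lies just below that background. In the other direction 2 of 9 were found, 22.2%, against 32.2%. With sorbitol, 2 of 10 wild-type loops were found in eGFP-YAP cells and 2 of 10 the other way, against 24.2% and 25.7%. Over all 43 loops, 20 were in 1 list alone, 15 in 2 lists, 8 in 3 lists and 0 in all 4. A loop shared by lists is counted here in each of them, so these are not numbers of separate loops. The same split over all loops of the lists is not given here.

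Of the 11 loops within subcluster 1, 7 began at its left-hand genes, from H3C1 to H2BC3, and 4 elsewhere. A loop of 70 kb from the H3C2 and H2AC4 anchor at 26030001 to H4C3 at 26100001 was in both untreated lists, at the 67.8 percentile in wild type and the 37.3 percentile in eGFP-YAP. Its counterpart in wild-type cells with sorbitol, from H3C1 and H4C1 at 26020001 to 26095001 (75 kb, 68.0 percentile), lay 10 kb off. In eGFP-YAP cells with sorbitol the nearest loop lay 20 kb off, from the same left anchor to H2BC4 and H2AC6 at 26120001 (90 kb, 44.3 percentile). Untreated eGFP-YAP cells had a pair of further loops from this left anchor. One went to H1-4, a linker histone gene, and H2BC5 at 26155001 (125 kb, 59.7 percentile). It matched a loop of untreated wild-type cells from 26035001 to 26145001 (110 kb, 55.5 percentile). The other went to H4C5 at 26200001 (170 kb, 64.6 percentile). The anchor at 26030001 was thus the left end of a loop in 3 of the 4 lists, and the exception, wild type with sorbitol, used a bin 10 kb away. The 4 loops elsewhere were from 26205001 to H4C8 at 26285001 in untreated wild-type cells (80 kb), from H2BC6 to the same H4C8 anchor and from H4C5 to 26295001 (95 kb) in wild type with sorbitol, and from 26060001 to 26095001 in untreated eGFP-YAP cells (35 kb). In wild type with sorbitol, then, 2 of 3 such loops lay at the right-hand end, towards H4C8.

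Within subcluster 3 each list held a single loop, and all 4 ended at or beside H3C12, H2AC17 and H2BC17. In wild type it ran from 27840001 to 27885001 without sorbitol (45 kb) and from H4C11 at 27820001 to 27885001 with it (65 kb). In eGFP-YAP it ran from 27825001 to 27890001 (65 kb) and from H2AC15 and H2BC15 at 27835001 to 27890001 (55 kb). Their percentiles by score were 26.9, 22.4, 53.0 and 39.5, each below the joining loops of the same list. No loop lay within subcluster 2, whose 14 kb is shorter than the shortest histone-gene loop.

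The remaining 16 loops led from a histone-gene anchor to DNA with no histone gene start within 10 kb, and all 16 of these other ends lay near tRNA genes. A tRNA gene of the RefSeq table was inside the 5 kb in 14 of 16 cases, 87.5% (64.0 to 96.5), and within 10 kb in 16 of 16, for which the interval is 80.6% to 100%. The stretch is rich in such genes, with 100 of the 465 in the table, and of its 338 bins of 5 kb away from histone genes 22.5% held one and 50.6% had one within 10 kb. Loops of the stretch without a histone gene also ended there often, with a tRNA gene inside 73 of 144 anchors (50.7%) and within 10 kb of 81.9%. Histone-side anchors held one in 6 of 70 cases (8.57%). The 16 ends fall in 13 distinct bins, of which 11 held a tRNA gene, so the anchors are not independent.

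**Figure D3:**
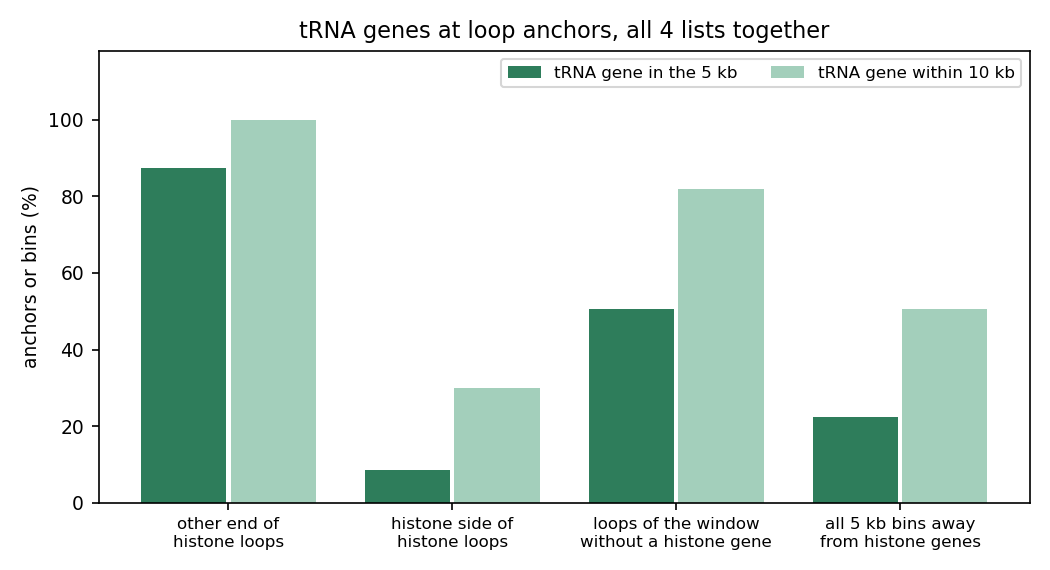
Share of anchors or bins (y axis, percent) with a tRNA gene inside their 5 kb (dark) or within 10 kb (light), over all 4 lists: 16 other ends of histone-gene loops, 70 histone-side anchors, 144 anchors of other loops between 25.9 and 28 Mb, and 338 bins away from histone genes. The other ends of histone-gene loops have the tallest bars, 87.5% and 100%.

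Of these other ends, 8 lay in, or within 10 kb of, the stretch from HMGN4, which encodes a nucleosome-binding protein of the high mobility group N family, to ABT1, which encodes a nuclear factor linked to basal transcription, and every list had at least 1. In untreated wild-type cells the anchor at 26180001, 4.1 kb from the start of H4C4, was joined to 26590001 by ABT1 over 410 kb (83.7 percentile), and H4C5 was joined to 26560001 over 360 kb (68.4 percentile). With sorbitol, the anchor at 26150001, 1.3 kb from the start of H1-4, was joined to 26545001 by HMGN4 over 395 kb (34.8 percentile). In untreated eGFP-YAP cells H2BC6 at 26170001 was joined to 26570001 over 400 kb (61.8 percentile). With sorbitol, the same H2BC6 anchor was joined to 26590001 by ABT1 over 420 kb (40.2 percentile), which matches the untreated wild-type loop. The start of H2BC6 in GENCODE differs by 11702 bp from that in RefSeq, so this gene's place in an anchor depends on the annotation, although the loops kept their membership with RefSeq starts.

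The other 8 ends lay nearer the subclusters or between subclusters 2 and 3. H2BC6 was joined over 135 kb to 26305001 in untreated wild-type cells (70.5 percentile), 19.4 kb beyond H4C8. In wild type with sorbitol, the anchor at 27150001, 2.9 kb from H2AC12, was joined to 27685001 over 535 kb (72.5 percentile). In eGFP-YAP cells with sorbitol, the H2BC12 and H2AC12 anchor was joined to 27500001 over 355 kb (85.1 percentile), and 27500001 to 27795001, 7.9 kb from H2BC13, over 295 kb (54.5 percentile). In that list, then, 27500001 was a meeting point between subclusters 2 and 3, which the 745 kb and 670 kb loops also joined directly.

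Of the 53 genes, 41 had a loop in at least 1 list, 17 in all 4 and 12 in none. The same counts across lists are not given here for all protein-coding genes. The number of genes with an anchor within 10 kb of their start was 38 in untreated wild-type cells, 31 with sorbitol, 27 in untreated eGFP-YAP cells and 31 with sorbitol. These are 71.7% (58.4 to 82.0), 58.5% (45.1 to 70.7), 50.9% (37.9 to 63.9) and 58.5%, against 29.2%, 27.8%, 37.6% and 28.6% of all 19970 protein-coding genes. Neighbouring histone genes share anchors (the anchor at 26025001 alone lay within 10 kb of 6 genes), so these shares rest on fewer independent events than their intervals assume. Of the other 19 protein-coding genes of the stretch, 8, 5, 8 and 6 had an anchor.

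**Figure D4:**
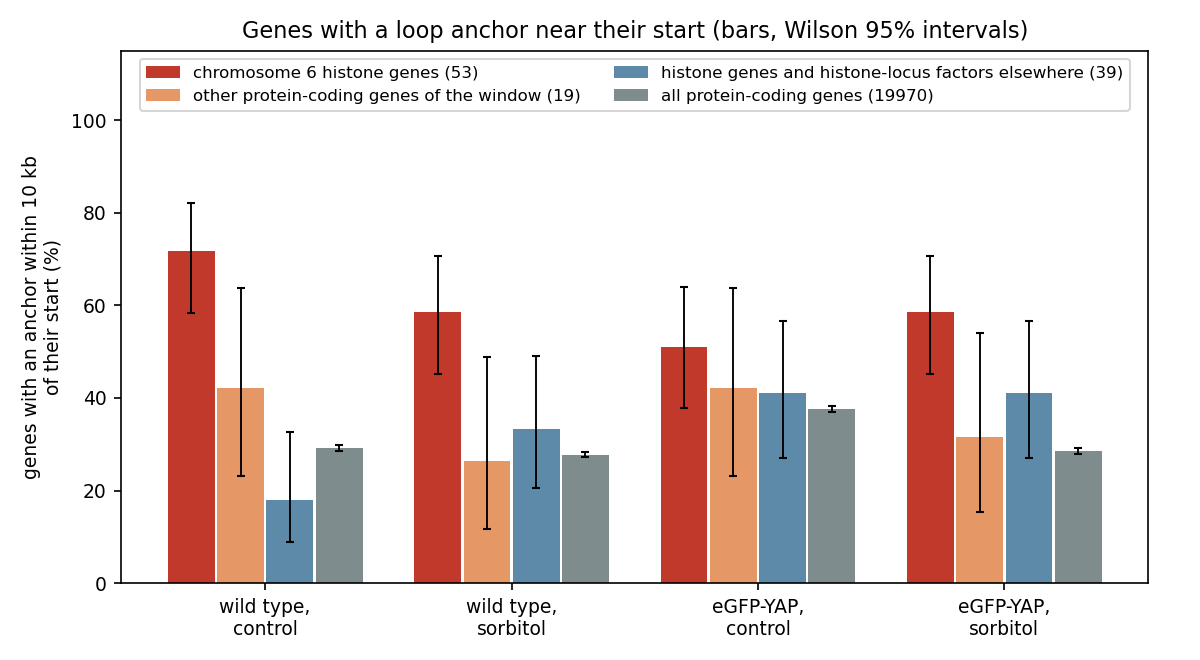
Percent of genes with a loop anchor within 10 kb of their start (y axis) in each list (x axis) for 4 sets of genes, with Wilson intervals (95%, counting error only). The bars of the chromosome 6 histone genes stand between 50.9% and 71.7%, and those of all protein-coding genes between 27.8% and 37.6%.

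The genes with the most loops differed between the lists. In untreated wild-type cells they were H3C4, H2AC7, H2BC7 and H4C5 with 5 loops each, of which 3 joined subclusters, followed by H4C2, H3C2 and H2AC4 with 4 each. In wild type with sorbitol H2BC6 led with 3, none of them joining. In untreated eGFP-YAP cells H3C1, H4C1, H4C2, H3C2, H2AC4 and H2BC3 at the left end of subcluster 1 had 3 each, as did H2BC12 and H2AC12. In eGFP-YAP cells with sorbitol H2BC12 and H2AC12 led with 4, followed by H4C9, H2BC13 and H2AC13 with 3. Genes of 1 such group share their loops, so each group is 1 observation.

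Across the lists, H2BC12 and H2AC12 had 0 loops in untreated wild-type cells, 2 with sorbitol, 3 in untreated eGFP-YAP cells and 4 with sorbitol. The H2BC11 and H2AC11 pair, 14 kb away in the same subcluster, had 2, 1, 0 and 1. H3C12, H2AC17 and H2BC17 had 2 in every list, always 1 joining loop and 1 within subcluster 3. H2BC14 and H4C11, an H2B and an H4 gene of subcluster 3, each had 3 joining loops in untreated wild-type cells and at most 1 in any other list. By subcluster, genes with an anchor numbered 23, 16, 16 and 14 of 32 in subcluster 1, 3, 5, 3 and 5 of 5 in subcluster 2, and 12, 10, 8 and 12 of 16 in subcluster 3. By family, genes with an anchor numbered 3, 3, 3 and 0 of 6 for H1, 9, 7, 5 and 9 of 11 for H2A, 11, 8, 8 and 10 of 14 for H2B, 6, 5, 4 and 5 of 10 for H3 and 9, 8, 7 and 7 of 12 for H4. The 0 of 6 for H1 has an interval of 0% to 39.0%, which includes the 28.6% of all protein-coding genes in that list.

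**Figure D5:**
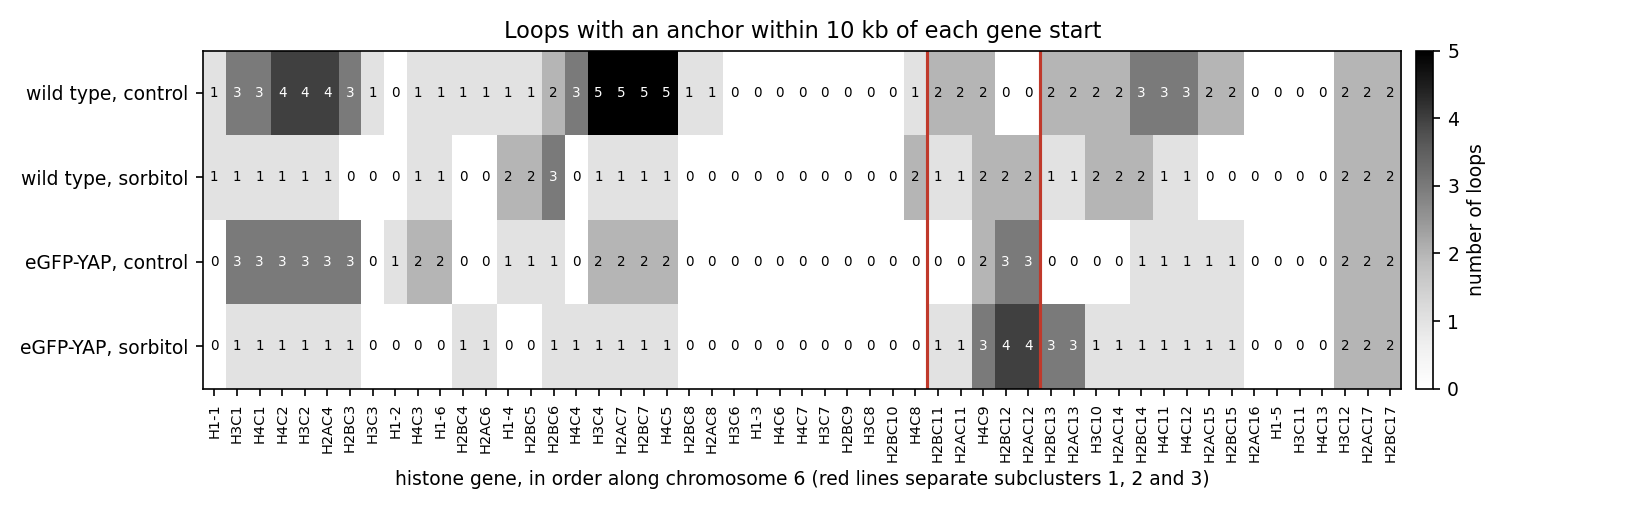
Number of loops with an anchor within 10 kb of each gene start (grey scale and printed digits), for the 53 genes in chromosomal order (x axis) and the 4 lists (y axis), with red lines between subclusters. Dark cells mark H3C4 to H4C5 with 5 loops each in untreated wild-type cells and H2BC12 and H2AC12 with 4 in eGFP-YAP cells with sorbitol, and 2 runs of 8 and 4 genes hold only zeros.

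The 12 genes without a loop lie side by side. In subcluster 1 they are the 8 genes H3C6, H1-3, H4C6, H4C7, H3C7, H2BC9, H3C8 and H2BC10, and in subcluster 3 the 4 genes H2AC16, H1-5, H3C11 and H4C13. They include the linker histone genes H1-3 and H1-5. The genes on either side, H2AC8 and H4C8, and H2BC15 and H3C12, had at least 1 loop in some list, so that loops ended at the flanks of these runs. With a limit of 25 kb in place of 10 kb, 8 of the 12 genes had an anchor in some list, and 49 of all 53 had one in untreated wild-type cells.

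Letters resembling the binding site of CTCF, the protein found at many loop anchors, were present in 2 of the 24 anchors of joining loops. A 14-base CTCF core motif with at most 1 mismatch, on either strand, was in 24.9%, 21.2%, 34.1% and 28.2% of all anchors of the 4 lists, and in 9.91%, 12.2%, 9.99% and 12.7% of the same anchors moved by 100 kb. Of the anchors of histone-gene loops it was in 3 of 28, 5 of 20, 2 of 18 and 3 of 20, near the share of the list in wild type with sorbitol and below it in the other lists. Of the anchors of joining loops it was in 1 of 12, 1 of 4, 0 of 4 and 0 of 4. Those matches were in the H4C2 anchor at 26025001 and in the anchor at 27895001. Between 25.9 and 28 Mb 27 of 420 bins of 5 kb (6.43%) held the motif, so the stretch as a whole had few, and a bin without these letters may still bind CTCF.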

How the data were processed

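In situ Hi-C loop lists of 4 conditions were used, 1 for each, with no replicate column. Per the file headers, each loop has 2 anchors of 5 kb, and the deposited peak score and contact value are scores on unstated scales, used to rank loops within a list. The caller's probability of enrichment, deposited as a fraction, was 0.900 or more for all loops and set no further filter. The header columns are those of the SIP caller. The caller's version and settings, the aligner, the normalisation of the maps and the depth are not given in the sources used here. Per the submitters' processing notes the build is hg38, and 0 anchors lay beyond its chromosome ends. Anchors in reverse order (4 loops) were sorted. No column was left without a condition (0 columns).

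Gene starts came from GENCODE release 44, tRNA genes and promoters from RefSeq tables (GRCh38). Distances ran from the anchor's edge to the gene start. Loops matched when both anchor centres lay within 10 kb. Shares have Wilson intervals and ratios of counts exact (Clopper-Pearson) ones, both 95%. No test was made, since each condition has 1 list. The named loops are all that join subclusters and, of the others, the 3 with the highest score percentile in each list. Their counterparts and the other loops within subclusters 1 and 3 were named after their values were seen. The counting was tested on simulated data. The members, lists of genes and limits were chosen with earlier results of these data known. Alternatives varied the gene distance (0 and 25 kb), the matching distance (0 and 25 kb), the gap between subclusters (100 and 500 kb), the loops used and the gene types. RefSeq gene starts were added after seeing the data. Python 3.11.15, pandas 2.3.3, scipy 1.17.1, numpy 2.4.6 and matplotlib 3.10.9 were used.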

Additional observations from a re-analysis of the deposited data

Results flagged for a closer look

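Of 10 quantities compared between sorbitol and control in each line, 3 moved in opposite directions in wild type and eGFP-YAP. The number of histone-gene loops changed by -4 in wild type and by 1 in eGFP-YAP. At a gene distance of 25 kb, and in the upper 50% of each list by score, it was lower with sorbitol in both lines. With each control list shortened by score to the length of its sorbitol list, wild type had 10 loops without and 10 with sorbitol. In eGFP-YAP the numbers were then 2 and 10. The median span of histone-gene loops changed by -115 kb in wild type and by 217.5 kb in eGFP-YAP. The number of histone genes with an anchor within 10 kb changed by -7 in wild type and by 4 in eGFP-YAP. With the shortened control lists it was 32 without and 31 with sorbitol in wild type, and 10 and 31 in eGFP-YAP. None of these differences between the lines was tested, since each condition has 1 list. Line, source of the list and any difference in serum starvation cannot be told apart.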

How the results depend on the processing

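Of 70 values under alternatives for 20 results, 52 kept to within their margin and 18 moved beyond it. The results are counts, spans and shares, which have no sign, so a reversal was not looked for. The number of genes with an anchor moved with the distance allowed. With the start inside the anchor (0 kb) it was 20, 12, 12 and 17 in untreated and sorbitol-treated wild-type and untreated and sorbitol-treated eGFP-YAP cells. At 25 kb it was 49, 47, 45 and 45 in the same order. At 25 kb eGFP-YAP cells had 14 histone-gene loops without sorbitol and 13 with it, a fall where 10 kb gave a rise from 9 to 10. At 0 kb each sorbitol list kept 1 joining loop. With the upper 50% of each list by score, wild type had 11 histone-gene loops without sorbitol and 3 with it, of which 6 and 1 joined subclusters. In eGFP-YAP the numbers of histone-gene loops were 7 and 5. With each control list shortened by score to the length of its sorbitol list, eGFP-YAP had 2 untreated histone-gene loops, both joining. It had 10 genes with an anchor. Wild type had 10 untreated histone-gene loops and 32 genes with an anchor, and kept its 6 joining loops. With exact matching (0 kb), 0% of untreated wild-type loops were found again, and 100% of wild-type and 90% of eGFP-YAP sorbitol loops had no partner. With 25 kb, 30.0% of wild-type sorbitol loops had none. With a gene distance of 25 kb, as with 10 kb, neither sorbitol list joined subcluster 1 to another. The 0 kb distance and the upper 50% by score can only remove loops, so they could not alter this absence. The causes of these movements, beyond the fewer loops or genes that each setting admits, were not tested. No paired analysis was possible because each condition has 1 list with no replicate column. Unknown depth limits every count: a loop missing from a list was not called there, which does not show that the contact was absent.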

Other observations

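Histone genes elsewhere and factors of the histone locus body had anchors in some lists and not in others. Of 39 such genes found in the annotation, 7 and 13 had an anchor within 10 kb in untreated and sorbitol-treated wild-type cells, and 16 and 16 in eGFP-YAP cells. These are 17.9% (9.0 to 32.7), 33.3% (20.6 to 49.0), 41.0% (27.1 to 56.6) and 41.0%, against 29.2%, 27.8%, 37.6% and 28.6% of all protein-coding genes, which lie inside the intervals. H3-3B, which encodes a replication-independent histone, and HINFP, a regulator of H4 genes, had one in all 4 lists. NPAT, the scaffold of the histone locus body, had one in every list but that of untreated wild-type cells. SLBP, whose protein binds the stem-loop of histone mRNA, had one in both sorbitol lists and in neither untreated list. So did LSM10, CRAMP1, GON4L and YY1. LSM11, a subunit of the particle that processes histone mRNA, and the pair H2AC1 and H2BC1 had the opposite pattern, with an anchor in both untreated lists and in neither sorbitol list. How often all protein-coding genes show either pattern is not given here. CASP8AP2, also a part of the histone locus body, had one in eGFP-YAP cells with sorbitol alone. Of the replication-dependent genes on chromosome 1 that start at 149812373 to 149887965, H2AC20, H2AC21 and H2BC21 had an anchor, and in untreated eGFP-YAP cells alone. These are presences and absences in 1 list for each condition, with no test.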
